A study of Mus musculus with 4 samples.

Results

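The genes of glucose use described here are 49 genes. They encode glucose transporters, the enzymes of glycolysis, lactate dehydrogenases, and the enzymes that use pyruvate in the mitochondria with their kinases (called pyruvate entry below). They also encode the tricarboxylic acid (TCA) cycle and the enzymes that make and break glycogen. The 49 genes were chosen by function and by name, with earlier results of these data known. Each was matched to the locus that carries its name in the deposited expression table. All 49 were found among 22483 named loci (30506 loci in all). Each had a single locus with no other gene name in it, and the table marks all 49 as having enough reads for its own test. RNA-Seq was done on whole mammary gland of 4 mice. Of these, 2 were wild type (miR-21+/+) and 2 were homozygous for a deletion of microRNA-21 (miR-21-/-). The labels name no Cre driver, tissue restriction or treatment. All 4 mice were virgins on a mixed 129SV::FVB/N::C57BL/6 background, and the labels give an age of 2 months. A whole gland holds fat, epithelium, vessels, immune cells and muscle, so each value is a mixture.

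Expression is given as FPKM, fragments per kilobase of transcript scaled to the number of mapped fragments, a level corrected for transcript length. The table has 1 FPKM value per genotype, made by the authors from both mice of that genotype. How far mice of a genotype differ cannot be seen, so no test was run, and every difference below is one between pooled values with no replicate check. The depth behind each value is unknown. The log2 ratio is that of miR-21-/- over miR-21+/+, without a pseudocount, so negative values are lower in miR-21-/-. In bulk tissue, fewer cells of a type and less RNA per cell cannot be told apart.

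Glycolysis splits glucose into pyruvate in the cytosol. Pyruvate either becomes lactate, or enters the mitochondria and is turned into acetyl-CoA by the pyruvate dehydrogenase complex, which pyruvate dehydrogenase kinases switch off. The TCA cycle then oxidizes acetyl-CoA, and glycogen is the stored form of glucose. In the mammary fat pad, adipocytes take up glucose under insulin and use it for lipid, and in lactation the epithelium uses it for lactose and milk fat. Several steps have isoforms that mark tissues, with particular forms in skeletal muscle, liver and brain.

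Values of the whole table frame these results. The locus that carries *Vmp1*, the gene whose transcript contains the miR-21 hairpin, was at 42.5 in miR-21+/+ and 68.2 FPKM in miR-21-/-. Poly(A) RNA of this kind does not measure the mature microRNA, so the deletion was not checked by it. The labelled tissue was checked by its markers, and the luminal keratins *Krt8* and *Krt18* and the adipocyte gene *Adipoq* were above 100 FPKM in both genotypes. Summed FPKM was 759295 in miR-21+/+ and 1175603 in miR-21-/- over all loci, but 380567 and 355385 over named loci. Equal sums over all loci would shift every log2 ratio by -0.63 and equal sums over named loci by 0.10, and values below are unscaled. Among markers of other cells, 21 of 21 skeletal muscle genes above the minimum were higher in miR-21-/-, while 8 of 8 B cell, 8 of 8 T cell and 8 of 9 brown fat genes were lower.

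MiR-21 itself is the molecule that differs by design between the genotypes. Its mature form, from RefSeq on GRCm38.p6, lies at chr11:86584120-86584141 on the minus strand and is shown because its seed (bases 2 to 8, in capitals) sets which messages it can pair with.
mmu-miR-21a-5p: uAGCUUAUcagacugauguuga

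The 3' UTRs of the 49 genes, from the GENCODE annotation of mm9, were searched for the seed match ATAAGCT (a 7mer-m8 site, or an 8mer when an A follows) and for TAAGCTA (a 7mer-A1 site). Only sense matches were counted, and an 8mer contains both shorter forms. *Pfkm* and *Pdha1* held a 7mer-m8 site and *Mdh1* a 7mer-A1 site, and none of the 49 held an 8mer. The 3 sites are shown in windows of 30 bases, read along the message, with the match in capitals.
Pfkm: ttttcctaaaaATAAGCTttatttatttct
Pdha1: gcaaccagtctATAAGCTctctgtcggttc
Mdh1: attaatatttgTAAGCTAagattattagaa

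In mm9 these matches lie at chr15:97962773-97962779 on the plus strand for *Pfkm* (base 283 of a 3' UTR of 388), chrX:156560342-156560348 on the minus strand for *Pdha1* (base 1367 of 1574) and chr11:21456902-21456908 on the minus strand for *Mdh1* (base 538 of 656). All 3 are in the last exon, exon 23 of *Pfkm*, exon 11 of *Pdha1* and exon 9 of *Mdh1*. A 7mer-m8 or 8mer site was present in 4.08% of the 49 genes (2 genes), against 6.98% of 13028 expressed genes with an annotated 3' UTR. Counting all 3 site types, the shares were 6.12% and 11.2%. The median 3' UTR was shorter among the 49 genes (849 bases) than among all genes (1138 bases), so the shares are not matched for length. Of the 3 genes with a match, *Pfkm* was higher in miR-21-/- (log2 ratio 0.51), and *Pdha1* (-0.39) and *Mdh1* (-0.52) were lower. A seed match is a description of the sequence and does not show that the site is used.

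All 49 genes passed the minimum used for the whole table, above 1 FPKM in at least one genotype. Their levels ran from 2.30 FPKM (*Hk3* in miR-21-/-) to 628 FPKM (*Aldoa* in miR-21+/+). The median gene stood at 66.9 in miR-21+/+ and 50.8 FPKM in miR-21-/-, well above the 9.17 and 9.16 FPKM of the median named locus. *Aldoa*, *Gapdh*, *Ldha* and *Pcx* were the most abundant. *Hk3*, *Eno2*, *Gys2* and *Slc2a1* were the least abundant in miR-21+/+, each under 10 FPKM.

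**Figure D1:**
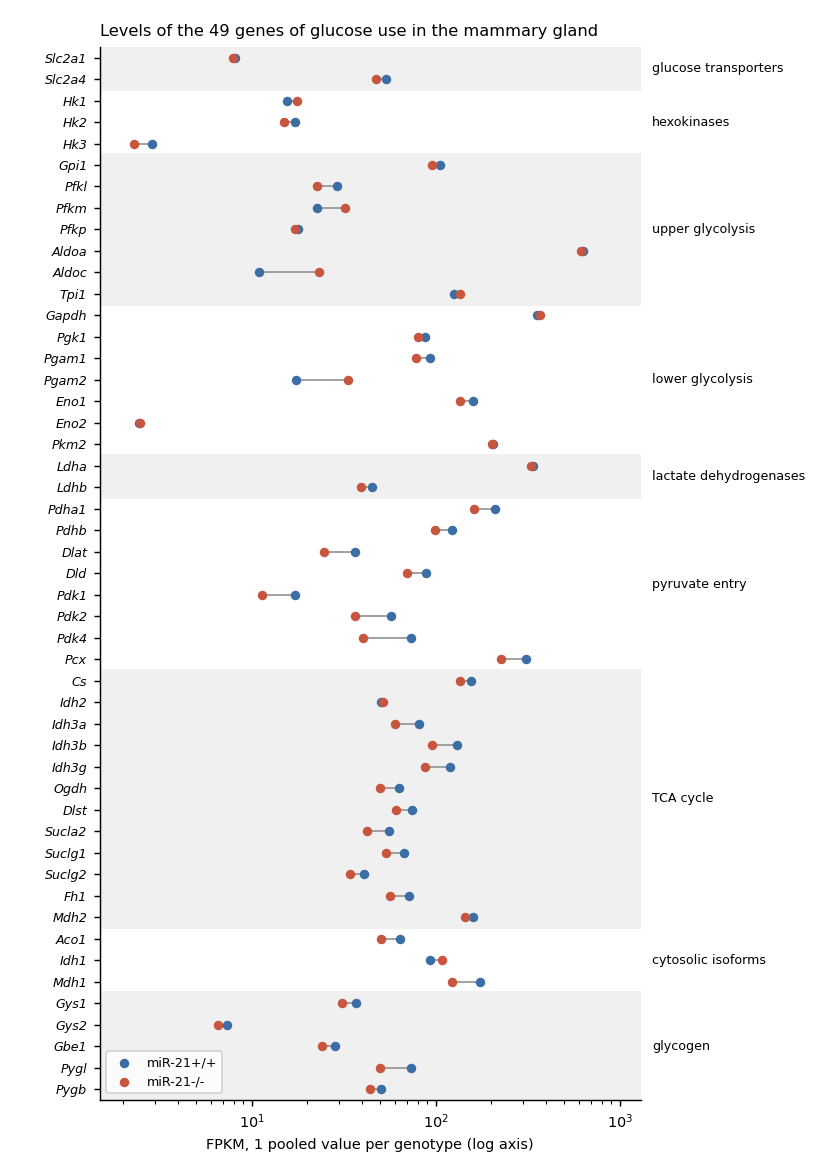
FPKM of the 49 genes on a log axis, with 1 pooled value for miR-21+/+ (blue) and 1 for miR-21-/- (red) per gene, ordered by role; grey lines join the values of a gene. Levels run from 2.30 to 628 FPKM, and the red point lies to the left of the blue one for 40 of the 49 genes.

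The prevailing difference was a small one in the same direction. Of the 49 genes, 40 (81.6%) were lower in miR-21-/- and 9 were higher, against 55.7% lower among all 13551 named loci above the minimum. The median log2 ratio was -0.25 (quartiles -0.35 and -0.04), against -0.03 (quartiles -0.18 and 0.11) for all named loci. Named loci of comparable abundance, the 3501 with a mean above 20 FPKM, had a median of -0.05 and were lower in 61.7% of cases. Summed over the 49 genes, the level was 4860 in miR-21+/+ and 4284 FPKM in miR-21-/-, a difference of -11.9%.

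Large differences were not more frequent than in the table as a whole. At least 1.5-fold lower were 3 of the 49 genes (6.12%), against 6.33% of named loci, and at least 1.5-fold higher were 2 (4.08%), against 5.48%. The lower genes were *Pdk4*, *Pdk2* and *Pdk1*, and the higher ones were *Aldoc* and *Pgam2*. At the 2-fold limit 1 gene was higher (*Aldoc*, 2.04%, against 2.03% of named loci) and 0 were lower, against 2.52%. Both shares at 1.5-fold are close to those of all named loci. Among the 3501 named loci with a mean above 20 FPKM the shares were smaller, at 4.46% lower and 3.37% higher.

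The difference was unevenly spread along the pathway. From hexokinase to pyruvate kinase, 17 genes summed to 1901 in miR-21+/+ and 1881 FPKM in miR-21-/- (-1.07%), with a median log2 ratio of -0.02, of which 10 were lower and 7 higher. From pyruvate entry through the TCA cycle, 20 genes summed to 1986 and 1542 FPKM (-22.3%), with a median of -0.37, of which 19 were lower and 1 higher. Scaling moves both medians by the same amount and leaves the gap between them as it is.

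**Figure D2:**
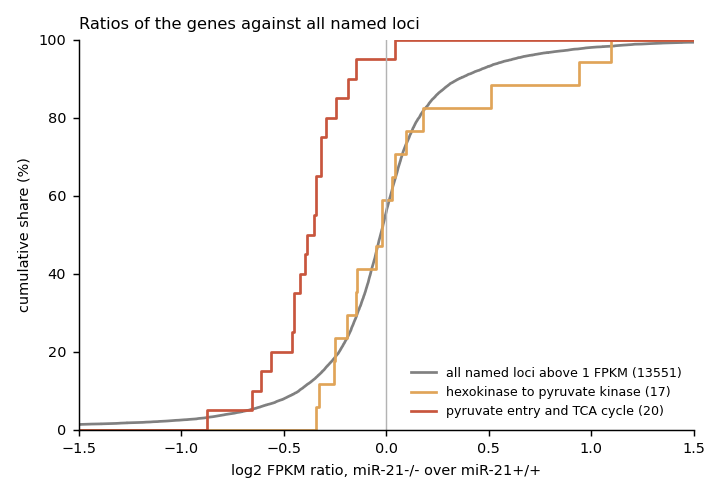
Cumulative share of genes (in percent) by log2 FPKM ratio of miR-21-/- over miR-21+/+, for 13551 named loci (grey), the 17 genes from hexokinase to pyruvate kinase (orange) and the 20 genes of pyruvate entry and the TCA cycle (red). The orange steps run along the grey curve with a tail of 3 genes above 0.5, and over most of their height the red steps lie to its left, with 1 of the 20 genes above 0.

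Glucose enters cells through the transporters. *Slc2a4* (GLUT4), the insulin-responsive transporter of fat and muscle, was at 53.6 in miR-21+/+ and 47.6 FPKM in miR-21-/- (log2 ratio -0.17). *Slc2a1* (GLUT1), the widely expressed basal transporter, was at 8.14 and 7.96 FPKM (-0.03). *Slc2a4* made up 84.9% of the summed level of the 4 transporters of the pathway in miR-21+/+ and 83.6% in miR-21-/-.

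Hexokinases trap glucose as glucose 6-phosphate. *Hk2*, the form of insulin-responsive tissues, was at 17.2 in miR-21+/+ and 15.0 FPKM in miR-21-/- (-0.19), and *Hk1*, the widely expressed form, was at 15.6 and 17.7 FPKM (0.18). The order of these isoforms was thus reversed between the genotypes, on differences of about 2 FPKM each that have no replicate check. *Hk3*, a form of blood cells, was low at 2.88 and 2.30 FPKM (-0.33). Summed over the 3 members, hexokinase RNA was 35.7 in miR-21+/+ and 35.1 FPKM in miR-21-/-.

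Upper glycolysis turns glucose 6-phosphate into triose phosphates, and its 7 genes summed to 941 and 946 FPKM (0.512%). *Gpi1*, which makes fructose 6-phosphate, was at 106 and 95.7 FPKM (-0.15). The phosphofructokinases catalyse the main control step, and their 3 subunits differed in direction. *Pfkm*, the muscle subunit, was at 22.6 in miR-21+/+ and 32.1 FPKM in miR-21-/- (0.51), a ratio that becomes -0.12 when both columns are scaled to equal sums over all loci. *Pfkl*, the liver subunit, was at 29.0 and 22.8 FPKM (-0.34), and *Pfkp*, the platelet subunit, at 17.9 and 17.3 FPKM (-0.05). *Aldoa*, the aldolase of muscle and most tissues and the most abundant gene of the 49, was at 628 and 620 FPKM (-0.02). *Aldoc*, the brain form (mm9 chr11:78136562-78140499), was at 10.9 and 23.4 FPKM, which is 2.14-fold higher in miR-21-/- (1.10) and the largest ratio of the 49 genes. *Tpi1*, which interconverts the triose phosphates, was at 126 and 135 FPKM (0.10).

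Lower glycolysis, where ATP and NADH are made, had 7 genes that summed to 924 and 900 FPKM (-2.65%). *Gapdh* was at 357 in miR-21+/+ and 368 FPKM in miR-21-/- (0.04), *Pgk1*, the first ATP-making enzyme, at 87.9 and 79.8 FPKM (-0.14), and *Pkm2*, the pyruvate kinase gene, at 206 and 203 FPKM (-0.02). These 3 enzymes catalyse the steps that yield energy, and their values were within 10% of each other between the genotypes. The mutase and enolase steps between them have tissue isoforms. *Pgam1*, the widely expressed phosphoglycerate mutase, was at 93.0 and 77.9 FPKM (-0.26), while *Pgam2*, the muscle form (chr11:5687958-5704796), was at 17.5 and 33.5 FPKM, 1.92-fold higher in miR-21-/- (0.94). *Eno1*, the widely expressed enolase, was at 161 and 135 FPKM (-0.25), and *Eno2*, the neuronal form, was at 2.45 and 2.49 FPKM (0.03).

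Lactate dehydrogenases interconvert pyruvate and lactate. *Ldha*, the M subunit, was at 338 in miR-21+/+ and 329 FPKM in miR-21-/- (-0.04), and *Ldhb*, the H subunit, was at 45.0 and 39.5 FPKM (-0.19). The level of *Ldha* was 7.51 times that of *Ldhb* in miR-21+/+ and 8.32 times in miR-21-/-.

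The pyruvate entry genes, which act on pyruvate in the mitochondria, had the lowest median ratio of the role groups. All 8 were lower in miR-21-/-, with a median log2 ratio of -0.50, and their sum was 916 in miR-21+/+ and 669 FPKM in miR-21-/- (-26.9%). The 4 catalytic components of the pyruvate dehydrogenase complex were all lower, *Dlat* by the largest ratio. *Pdha1*, the E1 alpha subunit, was at 210 and 161 FPKM (-0.39), and *Pdhb*, the E1 beta subunit, at 123 and 99.0 FPKM (-0.32). *Dlat*, the E2 core, was at 36.4 and 24.7 FPKM (-0.56), and *Dld*, the E3 subunit that other complexes share, at 89.1 and 70.4 FPKM (-0.34). *Pcx*, pyruvate carboxylase, which supplies oxaloacetate for the cycle and for lipid synthesis in fat, was at 308 and 226 FPKM (-0.45).

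The kinases that phosphorylate and switch off this complex showed the largest negative ratios of the 49 genes. *Pdk4*, the isoform induced in fasting and by fatty acids (chr6:5433351-5446278), was at 73.6 in miR-21+/+ and 40.2 FPKM in miR-21-/- (-0.88). *Pdk2*, the broadly expressed isoform, was at 57.3 and 36.4 FPKM (-0.65), and *Pdk1*, a target of hypoxia-inducible factor, at 17.3 and 11.4 FPKM (-0.61). The remaining isoform, *Pdk3*, is outside the 49 genes and was at 5.30 and 5.60 FPKM. Summed over all 4 kinases the level was 154 in miR-21+/+ and 93.5 FPKM in miR-21-/- (-39.1%), and *Pdk4* made up 48.0% and 42.9% of it. Kinases and their target complex were thus lower together. The level of *Pdk4* was 0.350 times that of *Pdha1* in miR-21+/+ and 0.249 times in miR-21-/-.

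**Figure D3:**
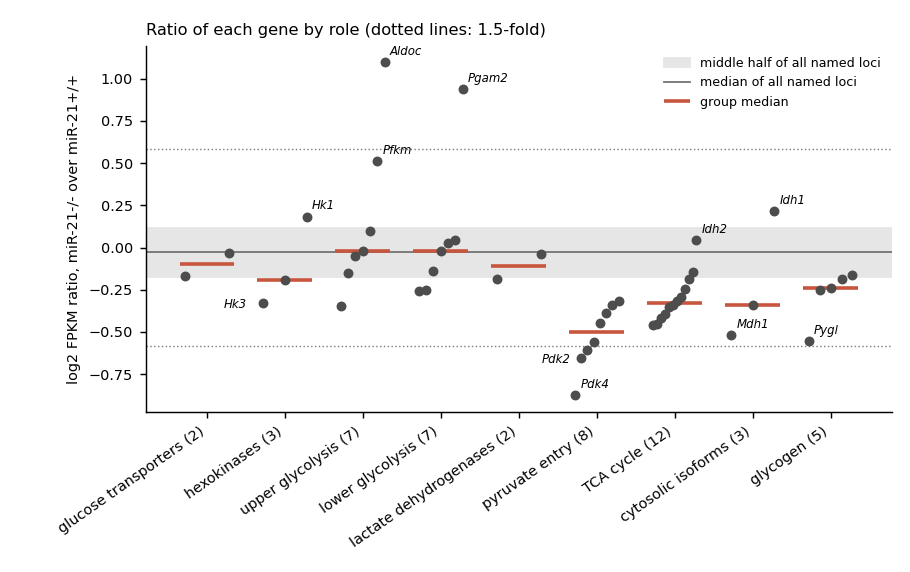
Log2 FPKM ratio of miR-21-/- over miR-21+/+ for each of the 49 genes (points), grouped by role with the number of genes in brackets; red bars are group medians, the grey band runs between the quartiles of all named loci, and dotted lines mark 1.5-fold. The pyruvate entry group has the lowest median (-0.50), *Pdk1*, *Pdk2* and *Pdk4* lie below the lower dotted line, and *Aldoc* and *Pgam2* lie above the upper one.

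In the TCA cycle 11 of 12 genes were lower in miR-21-/-, with a median log2 ratio of -0.33, and the sum was 1070 in miR-21+/+ and 873 FPKM in miR-21-/- (-18.4%). None of the 12 was past 1.5-fold. *Cs*, citrate synthase, which starts the cycle, was at 155 and 136 FPKM (-0.19). The 3 subunits of the NAD-linked isocitrate dehydrogenase, a control point of the cycle, had nearly equal ratios. *Idh3a* was at 81.0 and 60.5 FPKM (-0.42), *Idh3b* at 130 and 95.3 FPKM (-0.45) and *Idh3g* at 120 and 87.5 FPKM (-0.46). The level of *Idh3a* was 0.622 times that of *Idh3b* in miR-21+/+ and 0.635 times in miR-21-/-, and that of *Idh3g* was 0.925 and 0.919 times, so the proportions among the subunits differed little. *Idh2*, the mitochondrial NADP-linked enzyme, was the exception in the group, at 50.6 and 52.1 FPKM (0.04).

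The later steps of the cycle followed the same direction. *Ogdh* and *Dlst*, the E1 and E2 components of the 2-oxoglutarate dehydrogenase complex, were at 63.5 and 50.1 FPKM (-0.34) and at 74.6 and 61.0 FPKM (-0.29). Succinyl-CoA synthetase has a shared alpha subunit, *Suclg1*, at 66.9 and 53.7 FPKM (-0.32). Its ATP-forming beta subunit *Sucla2* was at 55.7 and 42.4 FPKM (-0.39) and its GTP-forming beta subunit *Suclg2* at 40.6 and 34.3 FPKM (-0.25). *Fh1*, fumarase, was at 72.1 and 56.4 FPKM (-0.35). *Mdh2*, mitochondrial malate dehydrogenase, had one of the smaller ratios, at 160 and 144 FPKM (-0.15).

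The cytosolic counterparts of cycle enzymes serve citrate, NADPH and malate shuttles. *Mdh1*, cytosolic malate dehydrogenase, was at 175 in miR-21+/+ and 122 FPKM in miR-21-/- (-0.52). *Aco1*, cytosolic aconitase, which also acts as an iron regulatory protein, was at 64.5 and 50.8 FPKM (-0.34). *Idh1*, which makes cytosolic NADPH, was at 92.8 and 108 FPKM (0.22). Both NADP-linked isocitrate dehydrogenases, *Idh1* and *Idh2*, were therefore among the 9 genes that were higher in miR-21-/-.

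All 5 glycogen genes were lower in miR-21-/-, and their sum was 196 in miR-21+/+ and 156 FPKM in miR-21-/- (-20.7%). *Gys1*, the glycogen synthase of muscle and most tissues, was at 36.8 and 30.9 FPKM (-0.25), and *Gys2*, the liver form, at 7.35 and 6.56 FPKM (-0.16). *Gbe1*, the branching enzyme, was at 28.4 and 24.1 FPKM (-0.24). *Pygl*, the liver phosphorylase that breaks glycogen down, was at 73.4 and 49.9 FPKM (-0.56), and *Pygb*, the brain form, at 50.3 and 44.2 FPKM (-0.19).

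At several steps the isoforms differed in opposite directions while the level of the step was nearly the same. Phosphofructokinase summed to 69.5 in miR-21+/+ and 72.3 FPKM in miR-21-/-, and the share of the muscle subunit *Pfkm* was 32.5% and 44.5%. Phosphoglycerate mutase summed to 110 and 111 FPKM, and the share of the muscle form *Pgam2* was 15.8% and 30.1%. In both steps the widely expressed or liver form was lower where the muscle form was higher.

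Muscle forms outside the 49 genes include those of enolase and phosphorylase, which were higher in miR-21-/-, and that of fructose bisphosphatase, which was not. *Eno3*, the muscle enolase, was at 44.3 and 74.7 FPKM (0.75), with 21.4% of enolase RNA in miR-21+/+ and 35.2% of it in miR-21-/-, at step sums of 207 and 212 FPKM. *Pygm*, the muscle glycogen phosphorylase, was at 40.1 and 67.1 FPKM (0.74), with a share of 24.5% and 41.6%, at step sums of 164 and 161 FPKM. *Fbp2*, the muscle fructose bisphosphatase, was at 1.55 and 1.52 FPKM (-0.02), low levels just above the minimum of 1 FPKM. Among the members, *Gys1* and *Aldoa*, which muscle shares with most tissues, were not higher either (-0.25 and -0.02). When *Pygm* is counted, phosphorylase RNA as a whole thus differed by -1.58%, against -0.56 and -0.19 on the log2 scale for the *Pygl* and *Pygb* members alone.

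**Figure D4:**
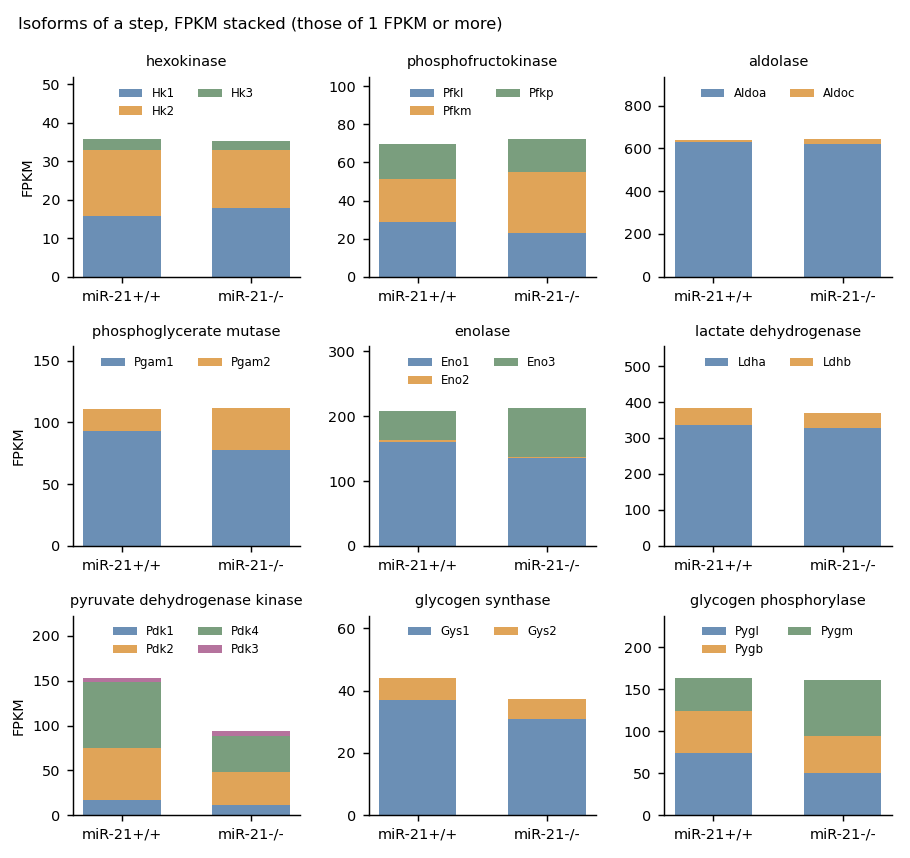
FPKM of the isoforms of 9 steps, stacked, with 1 bar for miR-21+/+ and 1 for miR-21-/- in each panel and its own axis from 0; isoforms under 1 FPKM are left out. The bars of phosphofructokinase, phosphoglycerate mutase, enolase and glycogen phosphorylase are of nearly equal height while the share of *Pfkm*, *Pgam2*, *Eno3* and *Pygm* is larger in miR-21-/-, and the kinase bar is 39.1% lower.

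Markers of skeletal muscle moved with these isoforms. Of 22 markers, 21 were above the minimum, all 21 were higher in miR-21-/- and 19 were past 1.5-fold, with a median log2 ratio of 0.78 (range 0.40 to 1.86). Their summed level was 1782 in miR-21+/+ and 2927 FPKM in miR-21-/-, and none was at 0. These values are unscaled. Equal sums over all loci would shift each log2 ratio by -0.63, which would turn the lowest of the marker ratios (0.40) negative but not their median. *Acta1*, skeletal actin, was at 328 and 526 FPKM, and *Ckm*, muscle creatine kinase, at 214 and 338 FPKM. The log2 ratios of *Pfkm* (0.51), *Eno3* (0.75), *Pygm* (0.74) and *Pgam2* (0.94) lie inside the range of the markers. The part of muscle tissue in the isoform values was not tested. The ratio of *Aldoc*, a brain form (1.10), lies inside that range too, and it made up 1.71% of aldolase RNA in miR-21+/+ and 3.64% in miR-21-/-.

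Markers of fat moved with the genes of pyruvate entry and the TCA cycle. Of 11 brown fat markers, 9 were above the minimum, and 8 of these were lower in miR-21-/- by 1.5-fold or more, with a median of -1.41 and a summed level of 256 and 125 FPKM. *Ucp1*, the uncoupling protein of brown fat, was at 43.3 and 8.48 FPKM, while *Zic1*, a factor of classical brown fat, was near 0 in both (0.0559 and 0.0551 FPKM). Of 10 white adipocyte markers, 8 were lower and 2 higher, with a median of -0.34 and summed levels of 19320 and 14919 FPKM. *Lep*, leptin, was one of those higher, at 27.7 and 67.9 FPKM, and *Plin4*, a lipid droplet protein, was the other, with a log2 ratio of 0.62. The median of the white adipocyte markers is close to that of the TCA cycle genes (-0.33). The part of fat cells in the results on the mitochondrial genes was not tested.

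Other marker lists moved as well. Lymphocyte markers were lower in miR-21-/-, with medians of -3.06 for 8 B cell and -2.10 for 8 T cell genes. Summed levels were 105 and 53.6 FPKM and 46.4 and 10.9 FPKM. The B cell sums include 70.3 and 48.3 FPKM of the *Cd79a* locus, which also carries *Arhgef1*. All 3 erythroid loci above the minimum were lower (median -1.30, sums of 993 and 409 FPKM). All 8 myoepithelial genes were higher (median 0.66, sums of 355 and 570 FPKM), as were 9 of 12 luminal genes (median 0.27, sums of 745 and 976 FPKM). The shift of -0.63 for equal sums over all loci would turn the luminal median and the lowest myoepithelial ratio (0.50) negative. Of 9 macrophage and neutrophil genes 4 were higher and 5 lower (median -0.02, sums of 423 and 443 FPKM). That median and 255 and 252 FPKM of those sums are of the *Cd68* locus, which also carries *Eif4a1* and *Senp3*. The part of the cells of these lists in the values of the 49 genes was not tested.

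The remaining genes of the same pathways were read from lists that do not overlap the 49. Of 14 further pyruvate dehydrogenase and TCA genes above the minimum, 12 were lower and 2 higher, with a median of -0.28. *Pdhx*, which anchors E3 in the complex, was at 17.6 in miR-21+/+ and 11.2 FPKM in miR-21-/- (-0.66), and *Pdp2*, a phosphatase that reactivates it, at 7.26 and 4.57 FPKM (-0.67). The subunits of succinate dehydrogenase, another enzyme of the cycle, were lower too. *Sdha* was at 210 and 150 FPKM (-0.48), and *Sdhb*, *Sdhc* and *Sdhd* lay between -0.31 and -0.23.

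The carriers that feed the mitochondria were lower as well. The mitochondrial pyruvate carrier, under its older names *Brp44* and *Brp44l*, was at 107 and 69.9 FPKM (-0.62) and at 218 and 166 FPKM (-0.39). Of 5 transport genes, 4 were lower and 1 was higher, with a median of -0.39. Of 5 gluconeogenesis genes all 5 were lower, with a median of -0.31. Among them, *Pck1*, which makes glycerol backbone for fat in adipocytes, was at 1226 and 846 FPKM (-0.54). *Fbp1*, fructose bisphosphatase, was the only one past 1.5-fold, at 1.89 and 0.197 FPKM (-3.26), both low levels.

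The neighbouring cytosolic routes differed less. Of 10 further glycolysis genes, 8 were lower and 2 higher, with a median of -0.17, and *Eno3* was the only one past 1.5-fold. *Pfkfb3*, which makes the activator of phosphofructokinase, was at 138 and 121 FPKM, a locus that the table marks as failed in its own test. Of 25 further glycogen genes 14 were higher and 11 lower, with a median of 0.07. *Pygm*, *Ppp1r3a*, a muscle glycogen-targeting subunit (0.742 and 1.31 FPKM), and *Stbd1*, a glycogen-binding protein (2.34 and 3.65 FPKM), were past 1.5-fold higher. *Gyg*, glycogenin, which primes glycogen, was past 1.5-fold lower at 52.8 and 30.1 FPKM (-0.81).

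In the pentose phosphate pathway 3 of 8 genes were higher and 5 lower, with a median of -0.17. The 3 higher genes were its dehydrogenases, which make NADPH, with *Pgd* at 83.4 and 121 FPKM (0.54) and *G6pdx* at 55.7 and 76.0 FPKM (0.45), the latter at a locus marked as failed. The third, *H6pd* of the endoplasmic reticulum, was at 42.2 and 43.0 FPKM (0.03). Of 9 genes of galactose and fructose entry 1 was higher and 8 were lower, none past 1.5-fold, with a median of -0.05.

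Among 19 regulators of glucose enzymes 5 were higher and 14 lower, with a median of -0.10. The coactivators of mitochondrial genes were low and lower still in miR-21-/-. *Ppargc1a* was at 3.87 and 1.42 FPKM (-1.44) and *Ppargc1b* at 3.82 and 2.36 FPKM (-0.70). *Ppara*, a fatty acid receptor that drives *Pdk4* in liver, was at 7.73 and 3.58 FPKM (-1.11). The loci of *Ppargc1a* and *Ppara* are marked as failed in the table. *Irs1*, an insulin receptor substrate, was at 16.2 and 24.9 FPKM (0.61), and *Hif1a*, the hypoxia factor that acts on many glycolytic genes, at 25.1 and 36.6 FPKM (0.54). *Txnip*, which rises with cell glucose and restrains its uptake, was at 661 and 686 FPKM.

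**Figure D5:**
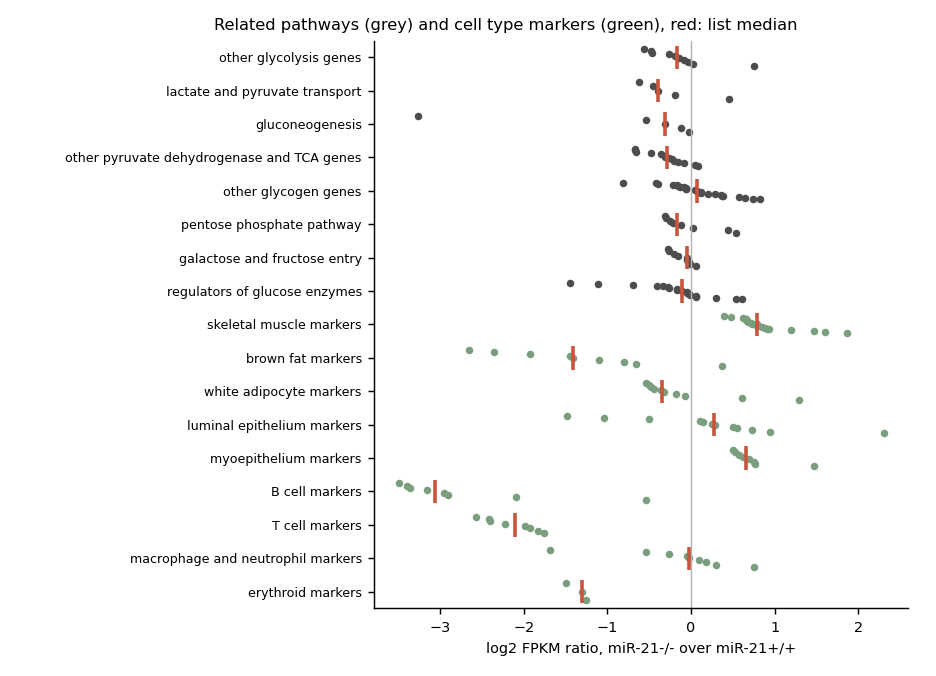
Log2 FPKM ratio of miR-21-/- over miR-21+/+ for the genes above the minimum in 8 related pathway lists (grey points) and 9 marker lists (green points), with the median of each list in red; each point is 1 locus. Skeletal muscle markers lie to the right of 0, from 0.40 to 1.86, B and T cell markers lie to its left, and the medians of the pathway lists lie between -0.39 and 0.07.

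The promoters of the genes were read to see which short letters they share. RefSeq promoters on GRCm38.p6, from 250 bases before to 50 after the start, were matched for 46 of the 49 genes (66 promoters). Promoters of the same gene can overlap, and a site they share is counted in each, as in several of *Ogdh*. ACGTG, or CACGT on the other strand, is the core of hypoxia response elements and of E-boxes bound by carbohydrate-responsive factors. It was in 27 of the 66 (40.9%), against 19.6% of all 32851 promoters, which were not matched for expression or base composition. The 27 belong to 20 genes. AAGGTCA or TGACCTT, a form of the element of estrogen-related receptors, was in 3 (4.55%, against 4.72%). CAGCTG, an E-box that reads the same on both strands and is bound by muscle factors among others, was in 9 (13.6%, against 16.3%). The palindrome CACGTG counts as a match on both strands. These 3 motifs were chosen with the values known, and a match is not a bound site.

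The 20 genes with ACGTG or CACGT in a promoter and the 26 without it had similar ratios. With the motif 16 were lower in miR-21-/- (median -0.19, range -0.65 to 1.10), and without it 21 were lower (median -0.25, range -0.88 to 0.94). A pair of promoters is shown, one of a gene whose level was nearly the same in both genotypes and one of a gene past 1.5-fold lower, with matches in capitals. Each of these genes has a second promoter in the table that holds none of the 3 motifs and is not shown. The promoter of *Ldha* shown lies at chr7:46845554-46845853 on the plus strand and has 3 capital runs. The promoter of *Pdk2* shown lies at chr11:95041322-95041621 on the minus strand and has 1.
Ldha: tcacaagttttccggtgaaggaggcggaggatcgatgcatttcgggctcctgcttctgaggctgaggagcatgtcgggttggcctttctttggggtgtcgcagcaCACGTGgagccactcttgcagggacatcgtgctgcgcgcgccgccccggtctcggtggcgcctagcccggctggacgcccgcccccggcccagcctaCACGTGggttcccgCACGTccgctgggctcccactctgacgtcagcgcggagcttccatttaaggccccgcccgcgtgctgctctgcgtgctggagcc
Pdk2: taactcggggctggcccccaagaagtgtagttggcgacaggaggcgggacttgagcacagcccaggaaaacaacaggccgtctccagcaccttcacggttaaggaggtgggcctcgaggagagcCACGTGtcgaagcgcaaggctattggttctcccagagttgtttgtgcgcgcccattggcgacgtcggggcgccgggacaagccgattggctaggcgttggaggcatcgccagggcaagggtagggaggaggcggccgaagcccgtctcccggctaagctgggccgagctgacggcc

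Beside the sequences stand the levels already given, -0.04 for *Ldha* and -0.65 for *Pdk2* on the log2 scale. *Pdk4* and *Pdk1*, which were lower as well, held no ACGTG or CACGT in these windows. Of the 3 genes with the highest ratios, *Aldoc* and *Pfkm* held it and *Pgam2* did not.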

How the data were processed

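Poly(A) RNA of mammary gland from 4 mice was sequenced as single-end reads on an Illumina HiSeq. Alignment by the authors was to mm9 with TopHat, followed by Cufflinks. CASAVA and TopHat are named in the submitters' processing notes. Versions, the annotation and the normalization options are not given in the sources used here. The authors deposited 1 Cuffdiff table with 1 FPKM value per genotype, pooled over 2 mice. Its columns of fold change, test statistic, p-value and q-value and its significance mark hold the authors' own comparison and were not used. The status mark of each locus was read only as a note on quality. The number of columns of per-sample values left out was 0.

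A log2 ratio was computed from the FPKM values of named loci above 1 FPKM in at least one genotype and above 0 in both, which gave 13551 loci. A gene name with several loci was given the one with the highest mean. Past the limit means 1.5-fold. With 1 value per genotype no model was fitted and no p-value computed, and list medians and counts stand beside those of all named loci. All 49 genes are named, and other genes were taken from those past 1.5-fold and the most abundant of each list. *Pdk3*, *Sdhb*, *Sdhc*, *Sdhd*, *Pgd*, *G6pdx*, *H6pd*, *Fbp2*, *Hif1a* and *Zic1* were chosen after their values were seen. Some genes of the lists are not reported here. The members and lists were chosen with earlier results of these data known. Table starts count from 0 (8700 of 21929 single-name loci matched an annotated transcript start after adding 1, and 504 as printed), and coordinates are given from 1. Sequences came from RefSeq tables (GRCm38.p6) and from the mm9 genome with its GENCODE annotation. The calculations were tested on simulated data. Python 3.11.15, numpy 2.4.6, pandas 2.3.3 and matplotlib 3.10.9 were used.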

Additional observations from a re-analysis of the deposited data

How the results depend on the processing

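No paired analysis was possible because each genotype has 1 pooled value, and for the same reason no replicate could be left out. Results were recomputed in 13 other settings of scale, pseudocount, minimum FPKM, locus choice and fold limit. Only the scalings could change a direction, because the other settings cannot turn the sign of a ratio of these genes. Under the scalings no gene past 1.5-fold changed its direction. Scaling to equal sums over all loci moved most values. It left 0 of the 49 genes 1.5-fold higher and 43 lower, beside 1.20% and 64.5% of all named loci, and the median of the 49 genes became -0.88. Group medians became -0.73 for glucose transporters, -0.82 for hexokinases, -0.65 for upper and for lower glycolysis, -0.74 for lactate dehydrogenases, -1.13 for pyruvate entry, -0.96 for the TCA cycle, -0.97 for cytosolic isoforms and -0.87 for glycogen genes. The median of the 49 genes minus that of all named loci was -0.22 under each scaling by construction, since a scaling adds the same amount to both medians. Equal sums over named loci left 1 gene 1.5-fold lower (*Pdk4*) and 3 higher (*Pfkm* was added), beside 4.85% and 7.17% of named loci. Equal upper quartiles, a median ratio of 0 and a pseudocount of 1 each left 2 genes 1.5-fold lower, without *Pdk1*. The shares of named loci that were 1.5-fold lower there were 5.76%, 5.91% and 4.26%. Direction changed in 7 genes (equal sums over all loci), 5 (over named loci), 3 (equal upper quartiles) and 2 (a median ratio of 0). *Pfkm* was one of the 7, with a log2 ratio of -0.12 under equal sums over all loci. With a minimum of 5 FPKM *Hk3* and *Eno2* dropped out, and the hexokinase median became -0.00458. A 2-fold limit left 1 gene higher and 0 lower, and the smallest fold limit tried, below 1.5, put 18 past it on the lower side and 3 on the higher, beside 14.3% and 11.1% of named loci. The depth of the libraries is unknown, so low genes such as *Hk3*, *Eno2* and *Fbp1* carry the least certain ratios.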
